A study of Mus musculus with 15 samples.

Results

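The comparison described here is the knockdown of Prmt1 in CT26 cells, a mouse colon carcinoma line, against a control hairpin. Its members were chosen by their labels: the 3 shPrmt1 and the 3 shControl libraries, 6 of the 15 RNA-sequencing libraries of the series. The labels give the genotype Prmt1 knockdown or Ctrl knockdown and no treatment for either group. By the study's methods, the shPrmt1 cells were a puromycin-selected stable line with a tetracycline-inducible lentiviral hairpin, given doxycycline (DOX) for 3 days before RNA was taken. Whether shControl also received DOX is not given in the sources used here, so the hairpin and DOX cannot be told apart, nor is it stated whether the line was a clone. The series calls the 3 libraries of a group biological replicates without naming separate cultures, so the p-values measure the spread between these libraries. The other 9 libraries were CT26 cells of wild-type genotype given vehicle, MS023 or GSK3368715, and are used only for values set side by side.

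PRMT1 is the main type I protein arginine methyltransferase of mammalian cells. It places asymmetric dimethylarginine on histone H4, on RNA-binding proteins with arginine-glycine repeats, and on many signalling and DNA repair proteins, and it uses S-adenosylmethionine, which the methionine cycle supplies. Lists of interferon, MYC and E2F genes were set aside as lists, but their members appear where another list holds them too. The MYC list shared 21 tested genes with ribosome biogenesis, and the E2F list 15 with mitosis and spindle and 8 with cell cycle regulators. The lists below cover other programmes: the response to low oxygen, sugar and lipid metabolism, p53 targets, lysosomes, the extracellular matrix, antioxidant enzymes, histones, DNA repair and growth factor signalling.

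The targeted gene was checked first. Prmt1 (ENSMUSG00000109324, GRCm38 chr7:44975989-44986568, minus strand) was measured at 5601, 5717 and 5620.1 normalized counts in shControl and 669, 761 and 683 in shPrmt1, where a normalized count is a gene's read count divided by a size factor of its library. The 3 shPrmt1 libraries lay close together and far below every shControl library, with means of 5646 ± 62.2 and 704 ± 49.8 (SD, n = 3 each), so that 12.5% of the control level remained. limma, which fits each gene separately and steadies its variance with that of the other genes, gave a log2 fold change of -3.004 (SE 0.07, adjusted p = 3.79e-07). The list of the family and its partners had 14 of 15 members tested, with Prmt1 itself the 1 lower and Btg2, described below with the p53 targets, the 1 higher. The other arginine methyltransferases were not called: the type II enzyme Prmt5 (log2 fold change -0.15, adjusted p = 0.138), Prmt6 (0.09, adjusted p = 0.409), Prmt3 (-0.02, adjusted p = 0.847) and Carm1 (-0.12, adjusted p = 0.3).

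Between 17284091 and 29233738 reads per library fell on genes, the shControl libraries holding 19077556 or more and the shPrmt1 libraries 20179259 or fewer, and mitochondrially encoded genes took 2.58 to 2.95% of them. A gene was tested if 3 or more of the 6 libraries reached 10 normalized counts, as 11485 of the 34432 listed did, and a gene was called at an adjusted p under 0.05. The fit called 1684 genes (14.7%), of which 861 were higher (7.5%) and 823 lower (7.17%) in shPrmt1, so 51.1% of the calls were higher. With every library scaled to the same total, 61.9% of 1748 calls were higher, and the median over all genes moved from -0.0036 to 0.029 on the log2 scale. The library shPrmt1 2 stood apart from the other shPrmt1 libraries on the second principal component (20.3% of the variance, against 48.5% for the first, which separated the groups). Without shPrmt1 2 the calls numbered 2511, with 1293 lower. Without shControl 1, shControl 2, shControl 3 or shPrmt1 3 they numbered 645, 877, 724 and 1098. The lists set aside, for interferon, MYC and E2F, are not described further: 120 of 195 tested interferon genes were higher and 3 lower, 6 of 58 MYC targets were lower, and 1 of 89 E2F targets was higher and 9 lower.

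CT26 comes from a colon tumor, but of 11 markers of intestinal epithelium Epcam, Cdh1 and Cdx1 were at 0 in all 6 libraries. The other 8 had reads, and 2 of them, Krt18 and Krt20, had enough to be tested. Krt18 was lower (log2 fold change -0.41, adjusted p = 0.0307), a call lost without shControl 1, 2 or 3 or shPrmt1 3 (highest adjusted p 0.129). Together the 11 markers summed to 724 to 813 normalized counts in shControl and 541 to 661 in shPrmt1. All 8 mesenchymal markers were tested and summed to 119700 to 124600 in shControl and 112000 to 130000 in shPrmt1. Of 9 immune markers none passed the filter, Cd3e, Cd3g, Nkg7 and Adgre1 were at 0, and the sum was 3.32 to 9.36 in shControl and 3.43 to 10.2 in shPrmt1. Of 4 endothelial markers Cdh5, Kdr and Tek were at 0, and the sum was 11.5 to 12.3 in shControl and 2.42 to 8.002 in shPrmt1. In such bulk RNA, fewer cells of a kind and less RNA per cell cannot be told apart.

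Across the programmes, genes of the hypoxia response and of glycolysis had the largest shares of members called lower of any list, and p53 targets, lysosomal genes, extracellular matrix genes and targets of YAP and TEAD were higher more often than lower. The share lower was 60.0% for hypoxia and 70.0% for glycolysis, against 7.17% of all genes, and the share higher was 35.9% for p53, 41.2% for YAP and TEAD, 31.7% for lysosome and 30.8% for extracellular matrix genes, against 7.5%. The plot of list members shows this gene by gene. The median log2 fold change was -0.48 for the hypoxia list and -0.43 for glycolysis, against -0.0036 over all 11485 genes tested.

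**Figure D1:**
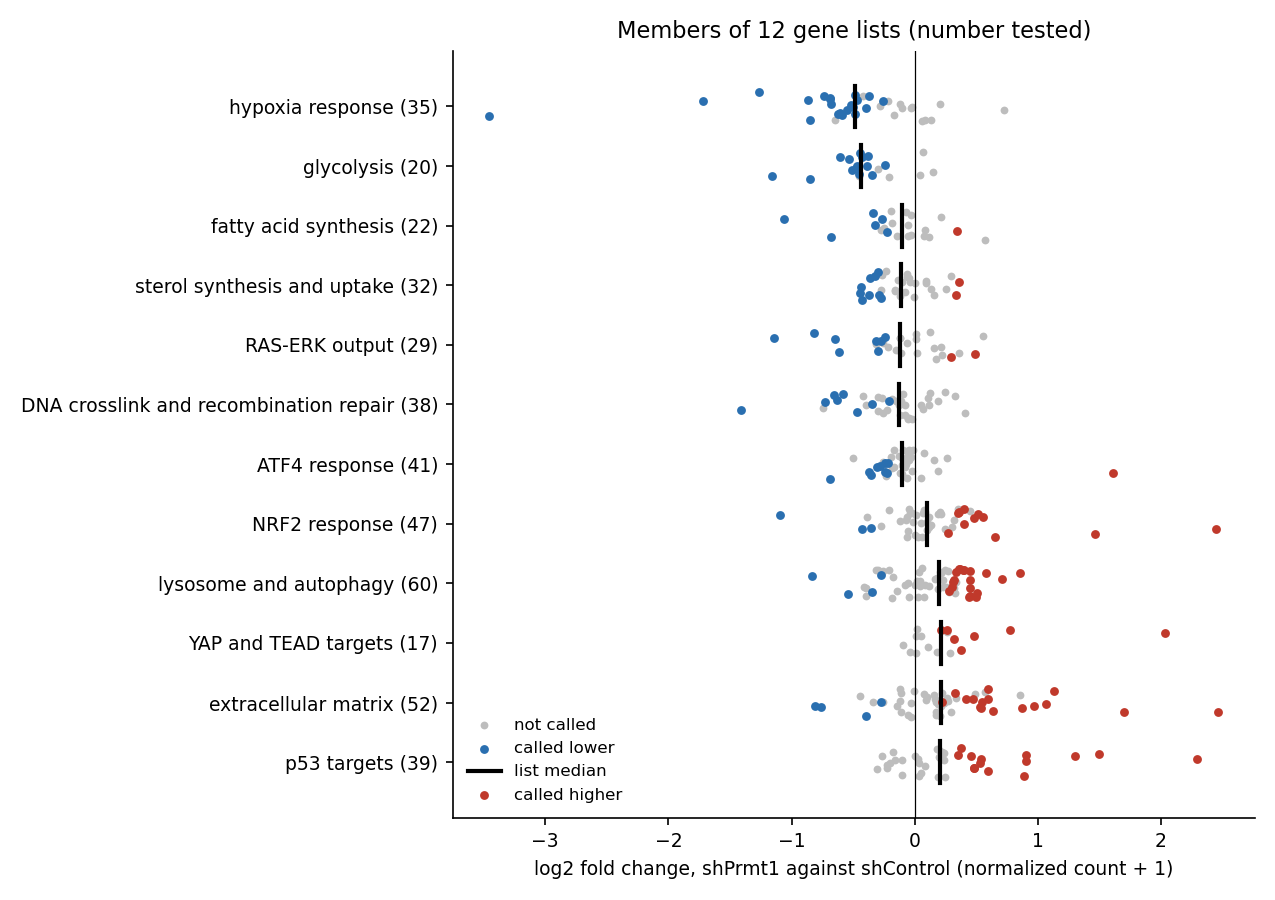
Log2 fold change of each tested member of 12 gene lists, shPrmt1 against shControl, as log2(normalized count + 1), a point standing for 1 gene, red for called higher, blue for called lower, grey for not called, and a black bar for the list median. The hypoxia and glycolysis members lie mostly left of 0, with medians of -0.48 and -0.43, and the p53, extracellular matrix, YAP and lysosome members mostly to the right, with medians of 0.20 to 0.21.

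Cells short of oxygen stabilise the transcription factor HIF-1, which raises glucose uptake, glycolysis, pH control and mitophagy genes, and prolyl hydroxylases such as EGLN1 destabilise it when oxygen is present. In shPrmt1, 21 of the 35 tested members of the hypoxia list (43 named) were lower. The count of members called higher was 0 by limma and by edgeR and 1 by DESeq2, with 2 at an unadjusted p under 0.05. In 23 of the 35, every shPrmt1 library lay below every shControl library, an order found in 18.9% of all genes tested. Without shPrmt1 2 the number lower was 23, and 15 members were called whichever single library was left out.

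Car9, a cell-surface carbonic anhydrase that is a classic HIF-1 target, was at 114, 82.1 and 77.4 normalized counts in shControl and 19.4, 2.42 and 7.14 in shPrmt1. The shPrmt1 libraries varied among themselves, but the highest was still far below the lowest control, giving a log2 fold change of -3.46 (SE 0.57, adjusted p = 0.00607). Ankrd37, an ankyrin-repeat gene induced by hypoxia, was at 137, 148 and 166 normalized counts in shControl and 38.9, 47.3 and 49 in shPrmt1. Its groups were tight and widely separated, with a log2 fold change of -1.72 (SE 0.16, adjusted p = 0.000422). It shares 22.7% of its exon bases with Lrp2bp on the other strand, which was at a mean of 5.59 normalized counts.

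Bnip3, a mitophagy receptor of the outer mitochondrial membrane (GRCm38 chr7:138890836-138909519, minus strand), was at 2684, 2751 and 2601 normalized counts in shControl and 1053, 1252 and 1041 in shPrmt1. The 3 shPrmt1 values fell well below the control range, means 2678 ± 75.4 and 1115 ± 119 (SD, n = 3), which was 41.6% of control and a log2 fold change of -1.27 (SE 0.08, adjusted p = 9.96e-05). Its relative Bnip3l was lower too (log2 fold change -0.48, adjusted p = 0.00236). Pdk1, the kinase that keeps pyruvate out of the citric acid cycle, was at 2365, 2540.0 and 2306 normalized counts in shControl and 1321, 1448 and 1190.2 in shPrmt1, without overlap and with a log2 fold change of -0.87 (SE 0.09, adjusted p = 0.000541). Slc2a1, the glucose transporter GLUT1 (GRCm38 chr4:119108711-119137983, plus strand), was at 3057, 2855 and 2944 normalized counts in shControl and 1723, 1428 and 1775 in shPrmt1, with shPrmt1 2 the lowest and a log2 fold change of -0.85 (SE 0.09, adjusted p = 0.000788).

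Bhlhe40, a transcriptional repressor that hypoxia induces, was at 1546, 1586 and 1545 normalized counts in shControl and 963, 958 and 975 in shPrmt1, with little spread in either group and a log2 fold change of -0.69 (SE 0.06, adjusted p = 0.000361). Egln1, the oxygen-sensing hydroxylase itself, was lower (log2 fold change -0.74, adjusted p = 0.000457). Mxi1, a MYC antagonist, was lower (log2 fold change -0.68, adjusted p = 0.00149) as was Ddit4, an inhibitor of mTORC1 (log2 fold change -0.68, adjusted p = 0.00158). Vegfa, the vascular growth factor, was lower (log2 fold change -0.40, adjusted p = 0.0149), but was not called without shControl 1 or without shControl 3, where the adjusted p reached 0.0729. The message of the factor itself was not called: Hif1a was at 5851, 6312 and 5684 normalized counts in shControl and 5202, 7035 and 5453 in shPrmt1, overlapping groups with a log2 fold change of -0.02 (SE 0.11, adjusted p = 0.902). Its partner Arnt (log2 fold change 0.14, adjusted p = 0.187) and Vhl, which marks HIF for destruction (log2 fold change -0.22, adjusted p = 0.136), were not called either.

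The promoters of the hypoxia genes with the largest decreases and of Slc2a1 are shown because HIF-1 binds a short core, ACGTG or GCGTG, near many of its targets. Each line gives the 250 bases before the RefSeq start on GRCm38.p6, 5′ to 3′ on the gene's strand, with a match to either core on either strand in capitals. The regions are chr4:43506776-43507025, plus strand for Car9, chr8:45999851-46000100, minus strand for Ankrd37, chr7:138909507-138909756, minus strand for Bnip3 and chr4:119108495-119108744, plus strand for Slc2a1, with 1, 4, 5 and 2 matches, overlapping matches on opposite strands counted separately.
Car9: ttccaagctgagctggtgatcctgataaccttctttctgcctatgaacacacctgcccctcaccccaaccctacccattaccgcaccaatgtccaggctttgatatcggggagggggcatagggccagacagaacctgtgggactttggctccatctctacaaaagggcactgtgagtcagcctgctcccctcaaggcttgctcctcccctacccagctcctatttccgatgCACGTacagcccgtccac
Ankrd37: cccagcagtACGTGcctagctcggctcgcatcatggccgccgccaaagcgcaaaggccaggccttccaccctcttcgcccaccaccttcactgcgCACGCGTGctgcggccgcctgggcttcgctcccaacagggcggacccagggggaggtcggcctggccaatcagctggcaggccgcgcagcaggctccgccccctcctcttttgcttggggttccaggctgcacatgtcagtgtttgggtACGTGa
Bnip3: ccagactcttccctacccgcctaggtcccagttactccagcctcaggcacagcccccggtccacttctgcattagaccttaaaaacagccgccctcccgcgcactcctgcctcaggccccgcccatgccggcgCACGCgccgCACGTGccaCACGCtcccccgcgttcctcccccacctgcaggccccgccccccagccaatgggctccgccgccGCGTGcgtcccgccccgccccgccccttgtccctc
Slc2a1: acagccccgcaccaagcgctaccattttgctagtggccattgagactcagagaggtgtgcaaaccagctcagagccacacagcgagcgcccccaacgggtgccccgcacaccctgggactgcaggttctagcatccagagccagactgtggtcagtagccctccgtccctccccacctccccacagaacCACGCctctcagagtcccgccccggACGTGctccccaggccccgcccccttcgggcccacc

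Among the genes with a single RefSeq promoter, the core was found in 13 of 13 hypoxia members called lower (100%) and in 18 of 21 tested members (85.7%), but also in 4140 of 7024 tested genes (58.9%) and in 8661 of all 22862 symbols (37.9%). A match is a description of these 250 bases and says nothing of binding.

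**Figure D2:**
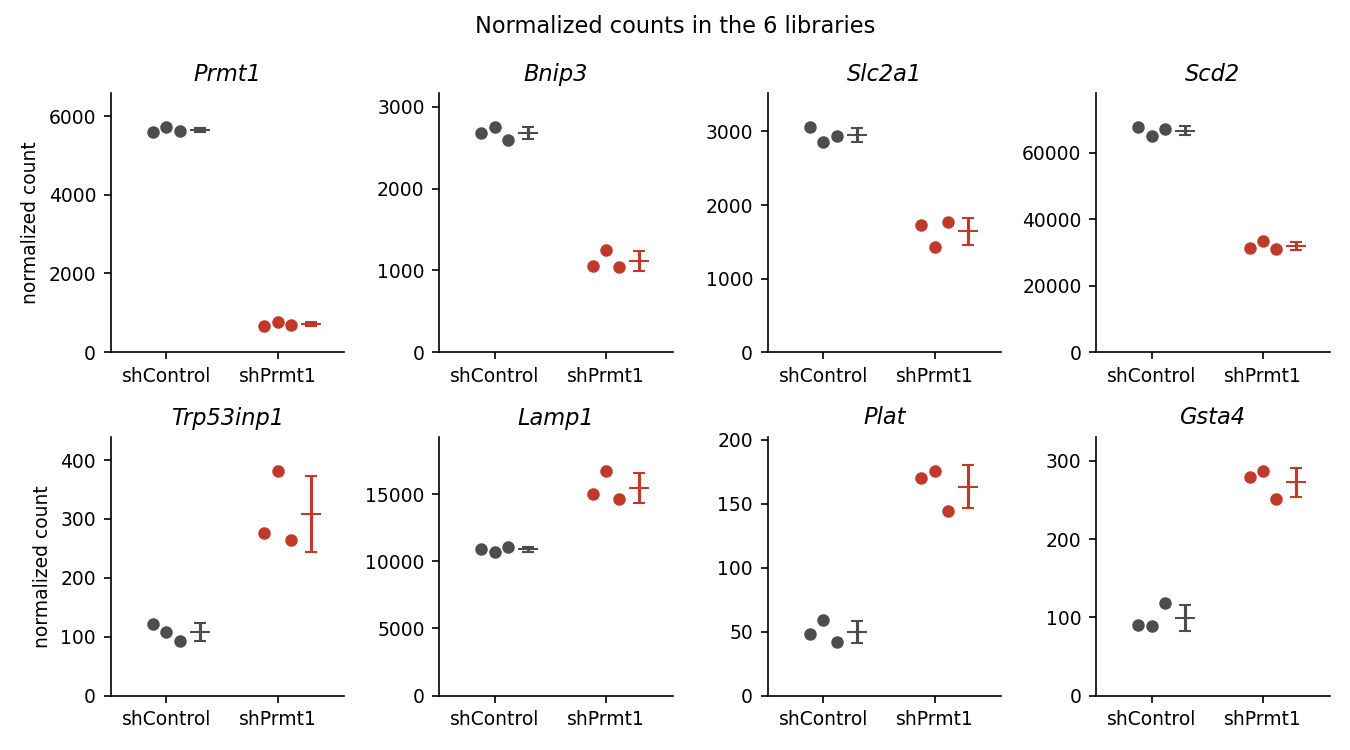
Normalized counts of 8 genes in each of the 6 libraries (points), with the mean (long dash) and SD (bar) beside them and axes that start at 0. Prmt1, Bnip3, Slc2a1 and Scd2 are lower in every shPrmt1 library than in any shControl library, and Trp53inp1, Lamp1, Plat and Gsta4 are higher in every one.

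Glycolysis turns glucose into pyruvate and lactate. Of its 20 tested members (22 named), 14 were lower and 17 lay below every control in all 3 shPrmt1 libraries. No member was called higher by limma, edgeR or DESeq2, and the number higher at an unadjusted p under 0.05 was 0. Slc2a1 and Slc16a3 stand on both the glycolysis and the hypoxia list, and Ldha is on the MYC list too. Both lists together held 53 tested genes, of which 33 were lower. Without shPrmt1 2 the glycolysis count was 15, without shControl 1 it was 8 and without shControl 3 it was 9.

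Following the pathway from glucose, the hexokinase Hk1 was lower (log2 fold change -0.47, adjusted p = 0.00145), and so was Hk2 (log2 fold change -0.24, adjusted p = 0.0417), the latter not called when any 1 library other than shPrmt1 2 was left out (highest adjusted p 0.143). Tpi1, triose phosphate isomerase, was at 20281, 19953 and 20781 normalized counts in shControl and 14919, 12784 and 14489 in shPrmt1, separated groups with a log2 fold change of -0.54 (SE 0.07, adjusted p = 0.00184). Gapdh was lower in every shPrmt1 library than in any control, at 45087, 34983 and 41372 normalized counts in shControl and 33024, 23069.8 and 33212 in shPrmt1, but spread widely and was not called in the main limma fit (log2 fold change -0.46, adjusted p = 0.0745). It was called by DESeq2 (adjusted p = 0.0182) and by limma with the replicate number as a block (adjusted p = 0.00182). Pgk1, Pgam1 and Ldha, which make 3-phosphoglycerate, 2-phosphoglycerate and lactate, were lower, with log2 fold changes of -0.39, -0.47 and -0.43 (adjusted p = 0.00184, 0.00194 and 0.00194). Ldha was at 48381 ± 862 normalized counts in shControl and 36039.9 ± 1678 in shPrmt1 (SD, n = 3). The largest decrease on the list was in Eno2, the enolase known from neurons, at 815, 994 and 1033 normalized counts in shControl and 469.8, 365 and 439 in shPrmt1, with a log2 fold change of -1.16 (SE 0.13, adjusted p = 0.000906).

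The lipid lists cover a fatty acid arm and a sterol arm. Fatty acids are built from acetyl-CoA by ACLY, FASN and desaturases, and sterols from the same precursor through the mevalonate pathway. Of 22 tested fatty acid genes (25 named), 6 were lower (27.3%) and 1, Gpam, was higher, with a median of -0.10. Of all genes, 7.17% were lower. The count was 3 without shControl 1 and 6 without shPrmt1 2.

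Scd2, a stearoyl-CoA desaturase that makes monounsaturated fatty acids (GRCm38 chr19:44293674-44306864, plus strand), was at 67648, 65105 and 67013 normalized counts in shControl and 31383, 33296 and 31136 in shPrmt1. Its shPrmt1 level was 48% of control with little spread, 66589 ± 1324 against 31938 ± 1183 (SD, n = 3) and a log2 fold change of -1.06 (SE 0.05, adjusted p = 3e-05). Fasn, the fatty acid synthase, was at 9999, 9850.5 and 10041 normalized counts in shControl and 6375, 5783 and 6484 in shPrmt1. Here too no library crossed, with a log2 fold change of -0.68 (SE 0.06, adjusted p = 0.000361). Acly, which makes cytosolic acetyl-CoA, was lower (log2 fold change -0.34, adjusted p = 0.00737). Scd1, the other desaturase of this family in these cells, was lower (log2 fold change -0.32, adjusted p = 0.00775), a call lost without shControl 1 (adjusted p = 0.0517).

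In the sterol list, 9 of 32 tested members (36 named) were lower (28.1%) and 2 higher (6.25%), with a median of -0.11. The shares of all genes were 7.17% and 7.5%. The number lower was 1, 4 and 2 without shControl 1, 2 and 3 and 13 without shPrmt1 2, and 1 member, Lpin1, a phosphatidate phosphatase, was called whichever library was left out, with a log2 fold change of -0.43 (SE 0.07, adjusted p = 0.00524). Fdps, which makes farnesyl diphosphate, was lower (log2 fold change -0.37, adjusted p = 0.0115) and lost its call without shControl 1 or shControl 3 (highest adjusted p 0.0594). Sqle, the squalene epoxidase, was lower (log2 fold change -0.29, adjusted p = 0.00939), a call also lost without shControl 1 (adjusted p = 0.0621). The regulators Srebf1 (log2 fold change -0.08, adjusted p = 0.546) and Srebf2 (-0.16, adjusted p = 0.244) were not called.

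The p53 list holds genes that the tumor suppressor p53 is known to activate. In shPrmt1, 14 of 39 tested members (46 named) were higher, and the median was 0.21. In 23, every shPrmt1 library was above every control, against 19.2% of all genes tested. None was called lower by limma, edgeR or DESeq2, and 1 was lower at an unadjusted p under 0.05. The count higher was 22 without shPrmt1 2, 8 without shControl 1, 9 without shControl 2 and 9 without shControl 3, and 8 members were called throughout.

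Trp53inp1, a p53-induced nuclear protein (GRCm38 chr4:11156431-11174379, plus strand), was at 122, 108 and 92.9 normalized counts in shControl and 277, 382 and 264 in shPrmt1. All shPrmt1 libraries were above the controls, shPrmt1 2 the most, with a log2 fold change of 1.49 (SE 0.17, adjusted p = 0.00116). Btg2, an antiproliferative protein that also binds PRMT1, was at 82.8, 77 and 71.9 normalized counts in shControl and 187, 196 and 192 in shPrmt1. The spread within each group was small beside the difference, 77.2 ± 5.45 against 192 ± 4.44 (SD, n = 3) and a log2 fold change of 1.30 (SE 0.12, adjusted p = 0.000423). Plk2, a polo-like kinase, was at 1174, 1327 and 1157 normalized counts in shControl and 2252, 2391 and 2211 in shPrmt1, again with no overlap and a log2 fold change of 0.91 (SE 0.08, adjusted p = 0.000254).

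The receptor genes Eda2r and Tnfrsf10b were higher, with log2 fold changes of 0.89 and 0.48 (adjusted p = 0.00211 and 0.00497). Gadd45a, a stress sensor, was higher (log2 fold change 0.60, adjusted p = 0.00469) as was Phlda3, an inhibitor of AKT (log2 fold change 0.53, adjusted p = 0.00604). Mdm2, the ubiquitin ligase that restrains p53, was at 2382, 2359 and 2272 normalized counts in shControl and 2986, 3190.2 and 2946 in shPrmt1, a small but well separated increase (log2 fold change 0.38, adjusted p = 0.00569). Cdkn1a, the p21 cell cycle inhibitor and best known target, was at 3434, 3123 and 3309 normalized counts in shControl and 4134, 3134 and 4076 in shPrmt1, where shPrmt1 2 lay inside the control range, and it was not called (log2 fold change 0.19, adjusted p = 0.263). Without shPrmt1 2 it was called, at 0.32 (adjusted p = 0.00357). Bax (log2 fold change 0.08, adjusted p = 0.591) was called only without that library, at 0.19 (adjusted p = 0.0293), and Trp53 itself (-0.22, adjusted p = 0.279) was not called.

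Lysosomes break down proteins, lipids and glycans, and many of their genes are activated together by TFEB and its relatives through a CACGTG element. In shPrmt1, 19 of 60 tested lysosome and autophagy genes (64 named) were higher and 4 lower, with a median of 0.20. The count higher was 25 without shPrmt1 2, 10, 10 and 9 without shControl 1, 2 and 3, and 12 without shPrmt1 3, and 8 members were called throughout.

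Gla, the lysosomal alpha-galactosidase (GRCm38 chrX:134588149-134601125, minus strand), was at 367, 387 and 347 normalized counts in shControl and 577, 616 and 603 in shPrmt1. The groups were far apart for their spread, with a log2 fold change of 0.71 (SE 0.08, adjusted p = 0.00131). Lipa, the acid lipase, was at 426, 393 and 396 normalized counts in shControl and 591, 649.7 and 576 in shPrmt1, and every shPrmt1 library was higher, with a log2 fold change of 0.58 (SE 0.09, adjusted p = 0.00393). Lamp1, a major protein of the lysosomal membrane, was at 10922, 10690.0 and 11084 normalized counts in shControl and 15012, 16735 and 14668 in shPrmt1, its highest value in shPrmt1 2, with a log2 fold change of 0.50 (SE 0.06, adjusted p = 0.00179).

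The protease genes Ctsb and Ctsa were higher, with log2 fold changes of 0.44 and 0.45 (adjusted p = 0.00186 and 0.00778), as was Grn, the precursor of granulins (log2 fold change 0.45, adjusted p = 0.0078). Sqstm1, the autophagy receptor p62, was higher (log2 fold change 0.40, adjusted p = 0.00349). Glb1, the lysosomal beta-galactosidase, went the other way: it was at 774, 737 and 771 normalized counts in shControl and 552, 491 and 527 in shPrmt1, every shPrmt1 library below the controls, with a log2 fold change of -0.54 (SE 0.08, adjusted p = 0.00358). The messages of the regulators Tfeb (log2 fold change -0.26, adjusted p = 0.343) and Tfe3 (-0.42, adjusted p = 0.0611) were not called in the main limma fit. Tfe3 was called lower by DESeq2 (adjusted p = 0.0199), and by limma with the replicate number as a block (adjusted p = 0.0118) and without shPrmt1 2 (adjusted p = 0.0205) or shPrmt1 3 (adjusted p = 0.0459).

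The promoters of Gla and Lamp1 are printed because both hold the CACGTG element, in capitals, in the 250 bases before the RefSeq start (GRCm38.p6, 5′ to 3′ on the gene's strand). The regions are chrX:134601006-134601255, minus strand for Gla and chr8:13158911-13159160, plus strand for Lamp1, with 2 and 4 matches. CACGTG reads the same on both strands and contains the ACGTG searched for above.
Gla: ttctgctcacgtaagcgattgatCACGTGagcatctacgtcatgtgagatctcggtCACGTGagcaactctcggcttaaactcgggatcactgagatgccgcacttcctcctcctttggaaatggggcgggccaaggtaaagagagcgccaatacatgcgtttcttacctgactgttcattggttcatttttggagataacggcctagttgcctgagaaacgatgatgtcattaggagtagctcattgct
Lamp1: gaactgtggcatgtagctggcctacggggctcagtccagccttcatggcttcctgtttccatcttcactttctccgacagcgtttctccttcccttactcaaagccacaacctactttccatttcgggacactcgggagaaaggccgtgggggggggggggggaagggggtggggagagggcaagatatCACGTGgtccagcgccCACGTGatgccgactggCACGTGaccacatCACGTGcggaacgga

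With a single RefSeq promoter, 12 of 38 tested lysosome members (31.6%) and 4 of the 12 called higher (33.3%) held the element, against 600 of 7024 tested genes (8.54%) and 5.92% of all symbols. The corresponding window of Lipa held none.

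Of the extracellular matrix list, which covers collagens, laminins, matricellular proteins, integrins and proteases, 16 of 52 tested members (89 named) were higher and 4 lower, with a median of 0.21. The count higher was 24 without shPrmt1 2, and 12 members were called throughout. Col1a1, Col1a2 and Fn1 are also among the 8 mesenchymal markers. The 3 of those 8 that were higher were Col1a1, Fn1 and Zeb2, and Col1a2 was not called. The part of the shared markers in the matrix list's result was not tested. Plat, tissue plasminogen activator (GRCm38 chr8:22757727-22782844, plus strand), was at 48.4, 59 and 42 normalized counts in shControl and 170.3, 176 and 144 in shPrmt1, a clear separation with a log2 fold change of 1.70 (SE 0.17, adjusted p = 0.000591). Lamb3, the beta chain of laminin 332, rose from a low level, at 6.16, 12.2 and 13.3 normalized counts in shControl and 67.4, 48.5 and 66.3 in shPrmt1, with a log2 fold change of 2.47 (SE 0.32, adjusted p = 0.00221).

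Col1a1, the main chain of type I collagen, was at 2174, 1853 and 2321 normalized counts in shControl and 4664, 3067 and 4890.2 in shPrmt1. The shPrmt1 libraries all exceeded the controls, but shPrmt1 2 did so by much less than the other two, and there was a log2 fold change of 0.97 (SE 0.17, adjusted p = 0.00825). Mmp11, a stromelysin, was at 167, 156 and 231 normalized counts in shControl and 462, 308 and 393 in shPrmt1, also lowest among the shPrmt1 libraries in shPrmt1 2, with a log2 fold change of 1.07 (SE 0.19, adjusted p = 0.00833). Mmp19 was higher (log2 fold change 1.13, adjusted p = 0.00299), with 22.3% of its exon bases shared with Tmem198b on the other strand, itself not called (log2 fold change -0.14). Fbln2 and Sparc, matrix-binding glycoproteins, were higher, with log2 fold changes of 0.87 and 0.54 (adjusted p = 0.000425 and 0.000906), as was Fn1, fibronectin (log2 fold change 0.33, adjusted p = 0.005). Thbs2, an inhibitor of angiogenesis, was at 674, 723 and 703 normalized counts in shControl and 378, 433 and 387 in shPrmt1, in the other direction with a log2 fold change of -0.81 (SE 0.09, adjusted p = 0.000788), while its relative Thbs1 was higher (log2 fold change 0.60, adjusted p = 0.00149).

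YAP and TEAD, the effectors of the Hippo pathway, raise genes for growth and the cytoskeleton. Of 17 tested targets and regulators (19 named), 7 were higher. limma, edgeR and DESeq2 called 0 lower, and 0 were lower at an unadjusted p under 0.05. The median was 0.21. The count was 8 without shPrmt1 2, 2, 3 and 3 without shControl 1, 2 and 3, and 4 and 3 without shPrmt1 1 and 3. Ccn2, connective tissue growth factor, was at 453, 522 and 457 normalized counts in shControl and 832, 868 and 750.2 in shPrmt1, with every shPrmt1 library well above the controls and a log2 fold change of 0.77 (SE 0.09, adjusted p = 0.00146). Ajuba, a LIM-domain scaffold, was higher (log2 fold change 0.49, adjusted p = 0.00594). Ccn1 was higher (log2 fold change 0.32, adjusted p = 0.011), but was not called without shControl 1 or 3 (highest adjusted p 0.0661). Ankrd1 (log2 fold change 0.11, adjusted p = 0.278) and Yap1 (-0.04, adjusted p = 0.726) were not called.

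In the TGF-beta and BMP list, 5 of 35 tested members were higher (14.3%) and 3 lower (8.57%), against 7.5% and 7.17% of all genes. The share lower was thus near that of all genes. The inhibitors of differentiation Id1 and Id2, direct targets of BMP signals, were both higher. Id1 was at 701, 711 and 742 normalized counts in shControl and 1216, 969.7 and 1188 in shPrmt1. Id2 was at 1005, 1098 and 1057 normalized counts in shControl and 1642, 1668 and 1546 in shPrmt1. In each, all shPrmt1 libraries lay above every control, with log2 fold changes of 0.64 and 0.62 (adjusted p = 0.00447 and 0.00105). Smad7, the feedback inhibitor, was higher (log2 fold change 0.43, adjusted p = 0.00825). Of the 5 higher, 1 was below 10 normalized counts in every shControl library, so it passed the filter only through the shPrmt1 libraries, and its values are not given. The 3 ligand and ligand-binding genes called lower, Tgfb1, Tgfb3 and Ltbp3, each lost the call without 1 of at least 4 libraries (highest adjusted p 0.181, 0.114 and 0.128).

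NRF2 raises glutathione and detoxification genes, and KEAP1 holds it in check. Of 47 tested members (53 named), 11 were higher (23.4%) and 3 lower (6.38%), against 7.5% and 7.17% of all genes, with a median of 0.10. The count higher was 16 without shPrmt1 2 and 6, 7 and 7 without shControl 1, 2 and 3. The largest increases were in glutathione transferases. Gsta4, which detoxifies lipid peroxidation products (GRCm38 chr9:78182774-78209349, plus strand), was at 89.8, 88.6 and 118 normalized counts in shControl and 279, 287 and 251 in shPrmt1, with a log2 fold change of 1.46 (SE 0.14, adjusted p = 0.000541). Gsta1 was at 17.6, 23 and 26.5 normalized counts in shControl and 117, 137 and 121 in shPrmt1, a wide gap with a log2 fold change of 2.44 (SE 0.20, adjusted p = 0.000232), although reads could be shared with the near copies Gm3776, Gsta2 and Gsta5, and the sum of the 4 genes gave a log2 fold change of 2.765. Gstm1 was higher (log2 fold change 0.66, adjusted p = 0.00146).

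The thioredoxin reductase Txnrd1 was at 4588, 4919 and 4784 normalized counts in shControl and 6813, 6957 and 6682 in shPrmt1, tight groups with a log2 fold change of 0.52 (SE 0.06, adjusted p = 0.000824). Cat, catalase, was higher (log2 fold change 0.48, adjusted p = 0.00519). Nqo1, often read as a measure of NRF2 activity, was at 18.5, 23 and 21 normalized counts in shControl and 13.7, 17 and 16.3 in shPrmt1, below the controls in each shPrmt1 library but not called (log2 fold change -0.39, adjusted p = 0.348). Hmox1, heme oxygenase, was higher (log2 fold change 0.55, adjusted p = 0.0257), a call lost when any 1 library other than shPrmt1 2 was left out (highest adjusted p 0.0907). Aldh3a1, an aldehyde dehydrogenase, was lower (log2 fold change -1.10, adjusted p = 0.0144) and lost the call without shControl 1 (adjusted p = 0.0588). The promoter element TGACNNNGC, searched on both strands, was in 8 of 29 tested members with a single promoter (27.6%), in 1 of the 6 such members called higher (16.7%) and in 12.1% of all tested genes with a single promoter.

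Most replication-dependent histone messages lack a poly(A) tail, and the library kit was made for poly(A) mRNA. Of 76 named histone genes, 24 had enough reads to be tested. Among the 24, 7 were higher (29.2%, against 7.5% of all genes) and 2 lower, with a median of 0.48, which was -0.07 over the 10 members left at a minimum of 50 normalized counts. Among the 7 is H2ac6, whose mean over all 6 libraries was only 12 normalized counts, close to the filter of 10. Its call was lost when any 1 library other than shPrmt1 2 was left out (highest adjusted p by limma 0.0819). The count higher was 7 without shPrmt1 2 and 4 without shControl 1. H2ax, the variant histone that is phosphorylated at DNA breaks (GRCm38 chr9:44334694-44336077, plus strand), was at 651, 577 and 634 normalized counts in shControl and 1404, 1244 and 1376 in shPrmt1, with a log2 fold change of 1.11 (SE 0.08, adjusted p = 0.000156). The linker histone H1f2 was at 119.7, 113 and 125 normalized counts in shControl and 326, 258 and 329 in shPrmt1, and every shPrmt1 library was far above any control, with a log2 fold change of 1.34 (SE 0.13, adjusted p = 0.000481). H2bc4 was higher (log2 fold change 1.42, adjusted p = 0.000424), and at 1.13 when 12 near copies were added to it. H3c14 was higher (log2 fold change 1.72, adjusted p = 0.00968) and shares sequence with H3c15.

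Among genes of DNA crosslink and recombination repair, 8 of 38 tested were lower (21.05%, against 7.17% of all genes), with a median of -0.13. None was higher by limma, edgeR, DESeq2 or at an unadjusted p under 0.05. The count was 11 without shPrmt1 2, 3 and 4 without shControl 1 and 2, and 5 without shPrmt1 1 or 3. Brca2 and 4 other members are also on the E2F list. Mnd1, which helps strand exchange in meiotic recombination, was at 245, 219 and 226 normalized counts in shControl and 98.3, 84.8 and 75.5 in shPrmt1, with a log2 fold change of -1.41 (SE 0.13, adjusted p = 0.000481). Brca2, a mediator of homologous recombination, was at 1917, 2302 and 2190.3 normalized counts in shControl and 1532, 1498 and 1264 in shPrmt1, every shPrmt1 library below the controls, with a log2 fold change of -0.58 (SE 0.10, adjusted p = 0.00743). Eme1, a subunit of the MUS81 nuclease, was lower (log2 fold change -0.63, adjusted p = 0.00768), with 8% of its exon bases opposite Lrrc59.

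Immediate early and feedback genes of the RAS-ERK pathway had 8 of 29 tested members lower (27.6%) and 2 higher (6.9%), with a median of -0.12. The shares of all genes were 7.17% and 7.5%. The number lower was 9 without shPrmt1 2, 3, 4 and 3 without shControl 1, 2 and 3, and 4 without shPrmt1 3. Egr1, a zinc finger factor induced within minutes of growth factor signals, was at 946, 945 and 944 normalized counts in shControl and 517, 558 and 531 in shPrmt1, nearly identical in the 3 controls and reduced to 56.6% of them, with a log2 fold change of -0.82 (SE 0.07, adjusted p = 0.000314). Egr3 was at 122, 156 and 121 normalized counts in shControl and 51.4, 57 and 70.4 in shPrmt1, with a log2 fold change of -1.14 (SE 0.18, adjusted p = 0.00469), and Ier3 was lower (log2 fold change -0.65, adjusted p = 0.00649). Dusp6, the feedback phosphatase of ERK, was not called (log2 fold change 0.13, adjusted p = 0.234).

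The ATF4 list, amino acid synthesis and transport genes of the integrated stress response, had 9 of 41 tested members lower (22%) and 1, Slc7a3, higher, with a median of -0.10. Of all genes, 7.17% were lower. Only Ddit4, which is on the hypoxia list as well, was called whichever library was left out. The count lower was 12 without shPrmt1 2, 1, 2 and 2 without shControl 1, 2 and 3, and 4 without shPrmt1 3. Asns, asparagine synthetase (log2 fold change -0.17, adjusted p = 0.0565), was not called in the main limma fit but was by DESeq2 (adjusted p = 0.0171). It was also called by limma with the same upper quartile (adjusted p = 0.0495), with the replicate number as a block (adjusted p = 0.0361) and without shPrmt1 2 (adjusted p = 0.0219). Atf4 (-0.10, adjusted p = 0.46) was not called.

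Some smaller groups held clear single changes. The metallothioneins, which bind zinc and copper, were both lower: Mt1 was at 2345, 2431 and 2356 normalized counts in shControl and 1256, 969.7 and 1194 in shPrmt1, with a log2 fold change of -1.07 (SE 0.10, adjusted p = 0.000422). Mt2 was at 2595, 2719 and 2659 normalized counts in shControl and 1511, 1445 and 1555 in shPrmt1, with a log2 fold change of -0.82 (SE 0.06, adjusted p = 0.000156). In neither did the groups overlap. The iron and copper list they belong to had 3 of 14 tested members higher (21.4%), none of them called whichever library was left out, and 2 lower (14.3%), both called throughout. Sox9, a transcription factor of intestinal stem cells and of cartilage, was at 420.0, 446 and 385 normalized counts in shControl and 199, 208 and 210.3 in shPrmt1. Its shPrmt1 level was 49.4% of control, with a log2 fold change of -1.01 (SE 0.10, adjusted p = 0.00046). The WNT and stem cell list had 1 of 13 higher and 1 lower (7.69% each), near the 7.5% and 7.17% of all genes.

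Cryab, a small heat shock protein, was at 151, 148 and 180.2 normalized counts in shControl and 374, 344 and 337 in shPrmt1, with a log2 fold change of 1.14 (SE 0.11, adjusted p = 0.000586). It was the 1 gene higher (4.76%) of 21 tested chaperone genes, of which 5 were lower (23.8%), against 7.5% and 7.17% of all genes. None of those 5 was called whichever library was left out: limma called 0 lower without shControl 1 or shControl 3, 2 without shControl 2, 3 without shPrmt1 1, 1 without shPrmt1 3 and 7 without shPrmt1 2. The circadian genes Per3 and Ciart were lower, with log2 fold changes of -0.77 and -0.72 (adjusted p = 0.005 and 0.00877). They were among 4 of 15 lower (26.7%, against 7.17% of all genes), in a list that also holds Bhlhe40. Oaz1, antizyme, which limits polyamine synthesis, was at 5581, 5594 and 5717 normalized counts in shControl and 3555, 2759 and 3224 in shPrmt1, with a log2 fold change of -0.83 (SE 0.09, adjusted p = 0.000903). It was among 3 of 23 lower in the methionine and polyamine list (13%, against 7.17% of all genes). Ahcy of that list had a log2 fold change of -2.36, which was -0.46 when its near copies Gm4737 and Gm9826 were added to it. Ddah1, which breaks down methylarginines, was at 889, 858 and 882 normalized counts in shControl and 1393, 1364 and 1448 in shPrmt1, with a log2 fold change of 0.68 (SE 0.06, adjusted p = 0.000488), and Padi2, which turns arginine into citrulline, was lower (log2 fold change -1.89, adjusted p = 0.00222), the only calls among 6 tested genes of that list.

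A list of apoptosis regulators had 2 of 28 higher (7.14%) and 3 lower (10.7%), near the 7.5% and 7.17% of all genes. Notch1 was higher (log2 fold change 0.56, adjusted p = 0.00425), with 1 of 14 NOTCH genes higher and 1 lower (7.14% each, again near all genes). The growth factor receptor Pdgfrb was higher (log2 fold change 0.69, adjusted p = 0.00268), and the epithelial and mesenchymal list had 4 of 22 higher (18.2%) and 3 lower (13.6%). In axon guidance, 5 of 30 were higher (16.7%) and 3 lower (10%). limma called 0 higher without shControl 1 or shControl 2, 1 without shControl 3, 2 without shPrmt1 1 or shPrmt1 3 and 8 without shPrmt1 2. Called throughout were the lower Ephb2 (log2 fold change -0.73, adjusted p = 0.00382) and Sema5a (log2 fold change -0.53, adjusted p = 0.00125). Cell cycle regulators had 2 of 28 higher (7.14%) and 3 lower (10.7%), also near the shares of all genes. Ccng2, an atypical cyclin, was lower (log2 fold change -0.78, adjusted p = 0.00184) like Cdkn2d, an inhibitor of CDK4 and CDK6 (log2 fold change -0.64, adjusted p = 0.00417).

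Several large groups had a smaller share of calls than the 14.7% of all genes. The cytosolic ribosomal proteins had 1 of 86 higher and 4 lower, the gene higher being Rpl5 (log2 fold change 0.72), which came to 0.01 when the near copy Gm15500 and 3 smaller ones were added to it. Mitochondrial ribosomal proteins had 5 of 78 lower, nuclear oxidative phosphorylation genes 3 of 74 lower, splicing and arginine-glycine-repeat proteins 1 of 69 higher and 5 lower, ribosome biogenesis genes 2 of 60 higher and 4 lower, mitosis and spindle genes 3 of 59 lower, NF-kB targets 1 of 23 higher and 1 lower, DNA methylation and silencing genes 1 of 29 lower, and Zfp zinc finger genes 12 of 325 higher and 9 lower. Of 34 proteasome genes limma called 0 in either direction, with 1 higher and 4 lower at an unadjusted p under 0.05, where edgeR called 0 and DESeq2 3 lower. Other groups were not below that share, where 7.5% of all genes were higher and 7.17% lower. The unfolded protein response had 1 of 31 higher (3.23%) and 5 lower (16.1%). Mitochondrial one-carbon and citric acid cycle genes had 5 of 34 lower (14.7%), and translesion polymerases 1 of 12 each way (8.33%). Of these calls, those that held whichever library was left out were 2 of 5 for the unfolded protein response lower, 2 of 5 for one-carbon and citric acid cycle genes, 1 of 5 for splicing lower, 1 of 4 for ribosome biogenesis lower, 1 of 3 for mitosis, 1 of 3 for oxidative phosphorylation, 0 of 5 for mitochondrial ribosomal proteins, 0 of 4 for cytosolic ones lower, and for Zfp genes 0 of 12 higher and 2 of 9 lower. The 13 mitochondrially encoded genes had 3 higher (23.1%) and 4 lower (30.8%). Several of them have near-identical nuclear copies that could take their reads. None was called whichever library was left out: limma called 0 in either direction without shControl 1, 1 each way without shControl 2, 0 higher and 3 lower without shControl 3, and 0 higher and 1 lower without shPrmt1 3. The 28 germ line genes known to be silenced by DNA methylation had no member with enough reads to test.

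In single libraries, each of 12 lists taken as the mean over its tested members was displaced from the controls the same way in all 3 shPrmt1 libraries. These lists were picked for plotting among those with many calls in the same libraries, so the agreement is no separate support. It was also seen for the proteasome list (-0.053, -0.044 and -0.052), where limma called 0 of 34. Axon guidance, not plotted, went both ways (0.11, -0.12 and 0.10). The list level plotted by library is the mean log2(normalized count + 1) of the members minus the shControl mean. The hypoxia level was -0.43, -0.58 and -0.50 in shPrmt1 1, 2 and 3 and the glycolysis level -0.33, -0.54 and -0.32, both lowest in shPrmt1 2. The extracellular matrix level was 0.38, 0.08 and 0.36, so shPrmt1 2 lay close to the highest control at 0.04. The p53 level was 0.35, 0.29 and 0.31 and the YAP and TEAD level 0.29, 0.33 and 0.31, with little difference between libraries. The part of shPrmt1 2 in these levels beyond the counts without it was not tested.

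**Figure D3:**
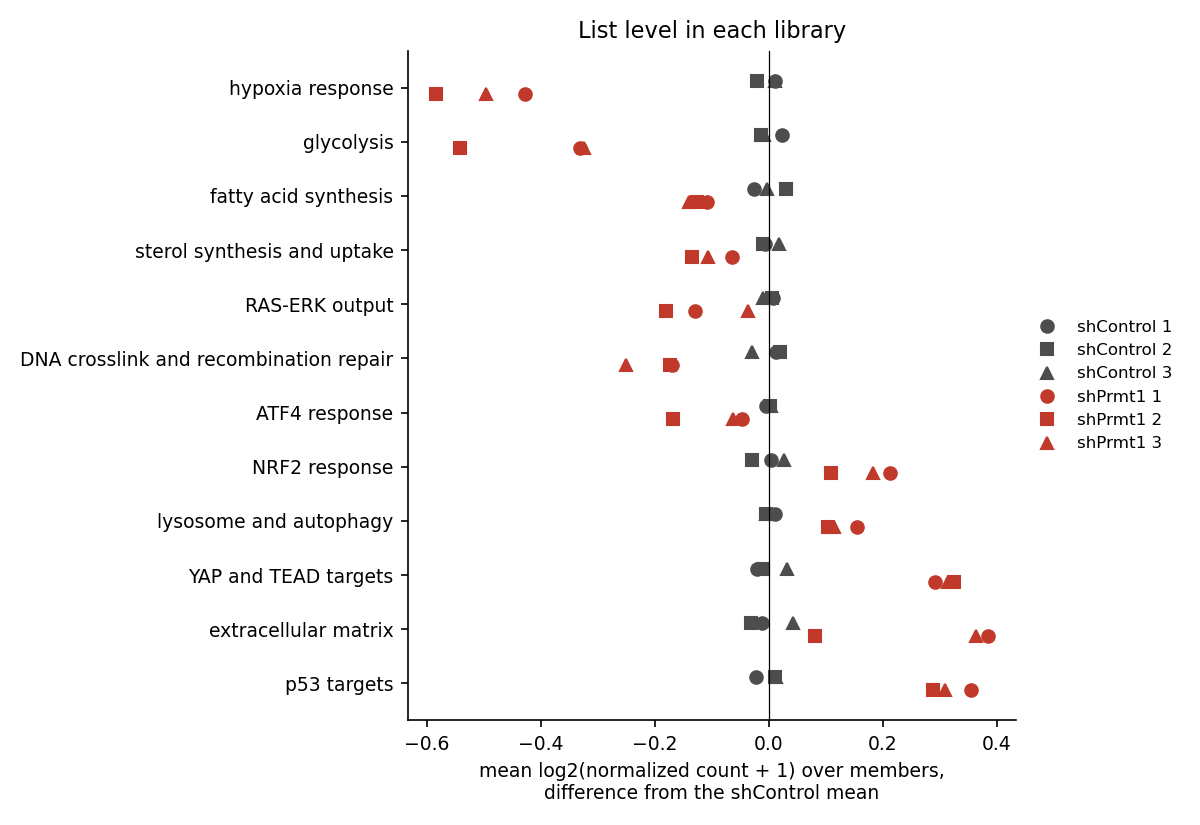
Level of 12 gene lists in each library, as the mean log2(normalized count + 1) over tested members minus the shControl mean, grey for shControl and red for shPrmt1, with circles, squares and triangles for replicates 1, 2 and 3. The red symbols lie apart from the grey ones in each list, at -0.43 to -0.58 for hypoxia, and the square of shPrmt1 2 lies nearest to the controls for the extracellular matrix, at 0.08.

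The largest single changes outside the interferon, MYC and E2F lists were taken among genes called without overlap whose higher group averaged 50 normalized counts or more. The 12 largest increases began with Poln, a DNA polymerase, at 13.2, 11.5 and 13.3 normalized counts in shControl and 224, 193 and 251 in shPrmt1, a 17.6-fold ratio of the means with a log2 fold change of 4.03 (SE 0.18, adjusted p = 2.2e-05). Poln shares 1.99% of its exon bases with Haus3 on the same strand. Serpinb9b, a relative of the granzyme inhibitor SERPINB9, was at 187, 181 and 184 normalized counts in shControl and 751, 856 and 808 in shPrmt1, with little spread in either group and a log2 fold change of 2.12 (SE 0.09, adjusted p = 1.58e-05). Gas7, a growth-arrest gene, was at 30.8, 25.9 and 29.9 normalized counts in shControl and 160.0, 133 and 142 in shPrmt1, with a log2 fold change of 2.29 (SE 0.16, adjusted p = 0.000125).

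Anpep, a membrane aminopeptidase, had means of 18.8 ± 6.99 and 87.3 ± 9.6 normalized counts (SD, n = 3), with a log2 fold change of 2.21 (SE 0.27, adjusted p = 0.00155). The chemokine Ccl9 was at 20.2, 30.2 and 19.9 normalized counts in shControl and 134, 135 and 67.4 in shPrmt1, its shPrmt1 3 value well under the other two but above every control, with a log2 fold change of 2.16 (SE 0.31, adjusted p = 0.00323). P2ry10b, a G protein-coupled receptor, and Abca8b, an ABC transporter, were higher, with log2 fold changes of 2.13 and 2.10 (adjusted p = 0.0194 and 0.00374). P2ry10b was at 7.04 normalized counts in shControl 1 and Abca8b at 8.64 in shControl 2. Like Lamb3, both passed the filter of 10 only with the shPrmt1 libraries. Ugt1a6a, a glucuronosyltransferase, was higher (log2 fold change 2.11, adjusted p = 0.000493) and shares 50.3% of its exon bases with Ugt1a7c, with which the sum gave 1.76. The very large GTPase Gvin2 and its pseudogene relative Gvin-ps7, members of an interferon-inducible family, were higher, with log2 fold changes of 2.28 and 2.38 (adjusted p = 3e-05 and 0.000185). With Gsta1 and Lamb3 these complete the 12.

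Among the 12 largest decreases, Prmt1, Car9, Ankrd37, Ahcy, Padi2 and Mnd1 are given above. Phex, a metalloendopeptidase of phosphate balance, was at 304, 315 and 279 normalized counts in shControl and 94.9, 125 and 91.9 in shPrmt1, without overlap and with a log2 fold change of -1.53 (SE 0.14, adjusted p = 0.000432). Bbs2, a subunit of the ciliary BBSome, was at 197, 232 and 200.1 normalized counts in shControl and 77.7, 83.6 and 80.6 in shPrmt1, an even decrease in all 3 libraries with a log2 fold change of -1.36 (SE 0.12, adjusted p = 0.000392). Cdh26, a cadherin, was at 559.9, 564 and 496 normalized counts in shControl and 186, 177 and 273 in shPrmt1, with a log2 fold change of -1.37 (SE 0.16, adjusted p = 0.00137). Hcfc1r1 was lower (log2 fold change -1.45, adjusted p = 0.00116), and 30% of its exon bases lie opposite Thoc6, which was lower too (log2 fold change -0.52, adjusted p = 0.0257). Tmem179 was lower (log2 fold change -1.81, adjusted p = 0.0225) but was not called without shControl 1 (adjusted p = 0.0911) or shControl 3 (adjusted p = 0.089), and its value was -1.33 without shPrmt1 2. Slc4a8, a bicarbonate transporter, was lower (log2 fold change -2.30, adjusted p = 0.0478), a call lost without shControl 1, 2 or 3 or shPrmt1 3 (adjusted p = 0.172, 0.0962, 0.105 and 0.0791), and its value was -1.54 without shPrmt1 2.

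The same genes were read in the cells given the PRMT inhibitors MS023 or GSK3368715, which were normalized separately and share their vehicle libraries, so the values are set side by side without a test of the difference. By the study's account the inhibitors were given for less time than the 3 days of DOX, so the exposures differ too. Of 13014 genes tested there, 13.7% were called higher and 14.1% lower with MS023, and 5.16% higher and 4.47% lower with GSK3368715. All values from here on are log2 fold changes against vehicle unless the knockdown is named. The hypoxia list had 3 of 36 members higher and 6 lower with MS023 (median -0.08) and 1 higher and 7 lower with GSK3368715 (median -0.23). Bnip3 had log2 fold changes of -0.39 (adjusted p = 0.0295) with MS023 and -0.50 (adjusted p = 0.0238) with GSK3368715. Pdk1 had -0.46 (adjusted p = 0.00106) with MS023 and -0.56 (adjusted p = 0.00154) with GSK3368715. Ankrd37 was at 0.19 (adjusted p = 0.514) with MS023 and -0.15 (adjusted p = 0.675) with GSK3368715.

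Sterol genes had a median of -0.11 in the knockdown and of 0.35 with MS023, where 20 of 33 were higher, and of 0.11 with GSK3368715, where 3 were. Fatty acid genes had a median of -0.10 in the knockdown, 0.08 with MS023, with 7 of 22 higher, and 0.02 with GSK3368715, with 1 higher. Fdps, lower in the knockdown, was at 0.49 (adjusted p = 0.000276) with MS023 and 0.08 (adjusted p = 0.454) with GSK3368715. Scd2, the desaturase with a clear decrease in the knockdown, was at 0.09 (adjusted p = 0.444) with MS023 and -0.11 (adjusted p = 0.426) with GSK3368715. Col1a1, higher in the knockdown, was at -0.52 (adjusted p = 0.00323) with MS023 and -0.11 (adjusted p = 0.527) with GSK3368715, and Ccn1 at -0.63 (adjusted p = 4.85e-05) and -0.32 (adjusted p = 0.00528). The extracellular matrix list had 10 of 65 higher and 12 lower with MS023 (median 0.01) and 5 higher and 3 lower with GSK3368715 (median 0.01). The YAP and TEAD list had 1 of 18 higher and 4 lower with MS023 (median -0.05) and 2 lower with GSK3368715 (median 0.05).

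The NRF2 list, with 11 of 47 members higher in the knockdown, had 29 of 49 members higher with MS023 (median 0.29) and 13 with GSK3368715 (median 0.15). Gsta4 was at 1.31 (adjusted p = 1.89e-06) with MS023 and 0.75 (adjusted p = 0.00024) with GSK3368715. The lysosome list had 21 of 60 higher and 6 lower with MS023 and 3 each way with GSK3368715. Lipa was at 0.66 (adjusted p = 8.17e-05) with MS023 and 0.43 (adjusted p = 0.00302) with GSK3368715, and Glb1 at -0.62 (adjusted p = 0.000163) and -0.39 (adjusted p = 0.00642). With MS023 and GSK3368715 in this order, Mnd1 was at -3.37 (adjusted p = 1.07e-07) and -1.91 (adjusted p = 4.19e-05). Bbs2 was at -1.18 (adjusted p = 5.86e-05) and -0.58 (adjusted p = 0.00723). H2ax was at 0.70 (adjusted p = 0.000307) and 0.61 (adjusted p = 0.00266). Mnd1 and Bbs2 were lower and H2ax higher with either inhibitor. The ATF4 list had 23 of 42 members lower with MS023 (median -0.31) and 3 with GSK3368715 (median -0.17), and the RAS-ERK list 13 of 29 and 3 (medians -0.23 and -0.11). The p53 list had 8 of 41 higher and 2 lower with MS023 and 1 each way with GSK3368715. Trp53inp1 was at 0.68 (adjusted p = 0.00722) with MS023 and 0.52 (adjusted p = 0.0529) with GSK3368715, and Btg2 at -0.01 (adjusted p = 0.96) and 0.19 (adjusted p = 0.378). Repair genes had 3 of 38 higher and 9 lower with MS023 and 4 lower with GSK3368715, and glycolysis genes 2 of 21 higher and 1 lower with MS023 and 1 higher and 3 lower with GSK3368715.

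**Figure D4:**
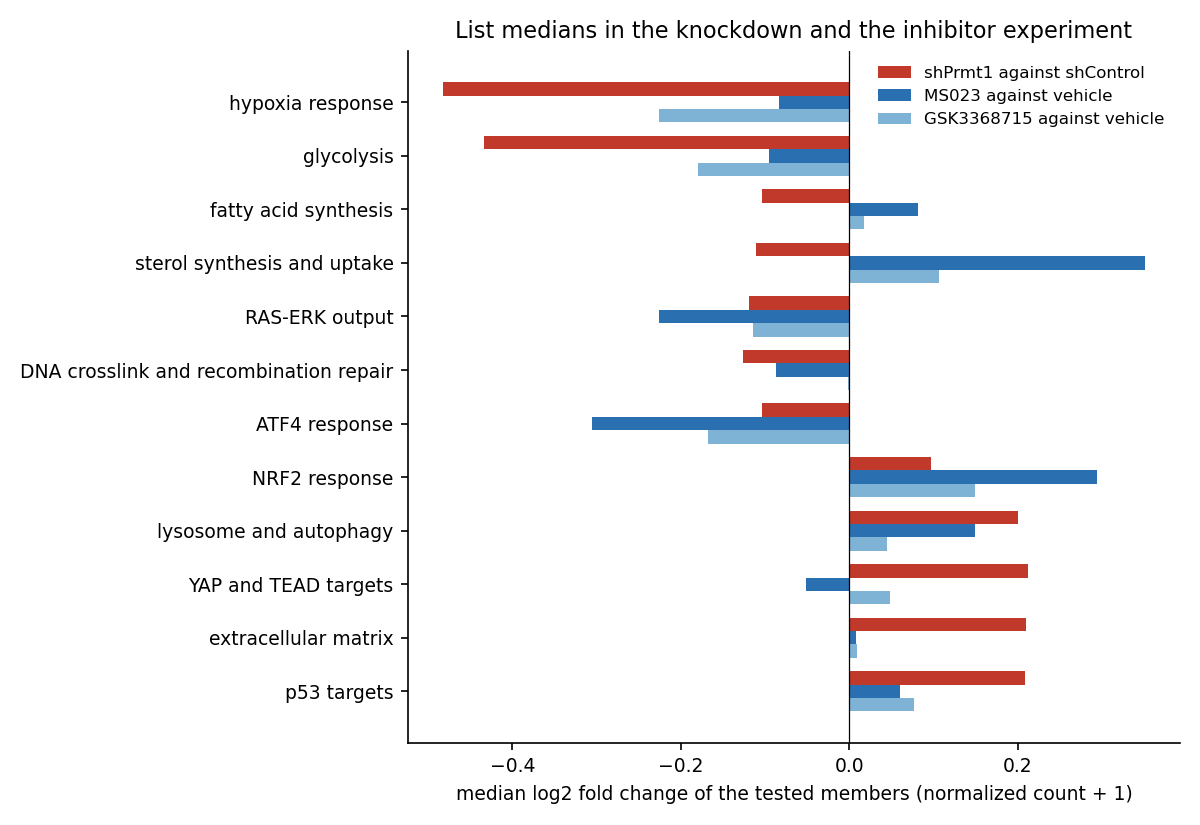
Median log2 fold change of the tested members of 12 lists for shPrmt1 against shControl (red), MS023 against vehicle (dark blue) and GSK3368715 against vehicle (light blue), as log2(normalized count + 1). The hypoxia and glycolysis bars are at -0.48 and -0.43 for the knockdown and between -0.23 and -0.08 for the inhibitors (-0.10 and -0.18 for glycolysis), and the sterol bar is at -0.11 for the knockdown and 0.35 for MS023.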

How the data were processed

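RNA was extracted from CT26 cells, and mRNA libraries were sequenced as paired-end reads on an Illumina NextSeq instrument. Per the submitters' processing notes and the study's methods, the authors quantified the reads with Salmon 1.4.0 on mm10 and used DESeq2, whose version is not given in the sources used here. The values the authors deposited are a normalized signal per gene and library: read counts divided by DESeq2 size factors. All values were whole multiples (within 0.01 of a read) of a constant of their library, so reads were recovered for 100% of them. The authors' gene annotation and the strand setting of the counting are not given in the sources used here, so reads of overlapping genes on opposite strands could not be separated. The deposited comparison tables hold the authors' fold changes and p-values and were not used.

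Genes reaching 10 normalized counts in 3 or more of the 6 libraries were tested on log2(normalized count + 1) with limma 3.58.1 in R 4.3.3 (lmFit and eBayes, trend on). The tests were two-sided, and a gene was called at a Benjamini-Hochberg adjusted p under 0.05 over all genes tested. Because of the pseudocount of 1, fold changes of weakly read genes come out too small. The 9 inhibitor libraries had their own fit of the same kind. The code was tested on simulated data.

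The libraries and the 48 gene lists, written from general knowledge, were chosen with earlier results of these data known, and lists are described by counts and medians beside those of all genes. Genes named are Prmt1, the 12 largest increases and decreases among genes called, with no overlap, 50 or more normalized counts on average in the higher group, and outside the interferon, MYC or E2F lists, up to 4 called members of each list in each direction under the same minimum, members that define a list (enzymes of a pathway, its regulators), and overlapping or near-copy genes. Some genes are not reported here. Further members with smaller changes were chosen after their values were seen. Copies were searched with BLAST+ 2.17.0 at 95% identity over at least 30% of the transcript, and overlaps were read from GENCODE vM21, in which 34372 of the 34432 gene IDs were found. Promoters are from RefSeq on GRCm38.p6. The coordinates given are those of GENCODE on GRCm38, the assembly called mm10. Replicates of a group differed beyond sampling noise (chi-square per gene 4.31 to 23.5), so each was counted as 1 sample. Reads carried no molecular identifiers. The alternatives run were pseudocounts of 0.5 and 5, dropping the filter or raising it to 50, equal upper quartiles or equal totals in all libraries, the trend switched off, the replicate number as a block, edgeR 4.0.16 or DESeq2 1.42.0 run on recovered reads, calls only from an absolute log2 fold change of 1 up, and each library left out in turn.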

Additional observations from a re-analysis of the deposited data

How the results depend on the processing

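Depth was 17284091 to 29233738 reads per library, and genes with few reads are limited by it. As single libraries were left out, the number of genes called ran from 645 to 2511 around 1684, with 365 to 1218 higher around 861 and 280 to 1293 lower around 823, lowest without shControl 1 and highest without shPrmt1 2. With a minimum absolute log2 fold change of 1 there were 275, of which 197 were higher and 78 lower. No filter, a minimum of 50 and no trend gave 1454, 1611 and 1336, scaling to the same upper quartile or total 1693 and 1748, a pseudocount of 0.5 or 5 1676 and 1708, edgeR 1712 and DESeq2 2151, and in none was a called gene called in the other direction.

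With the replicate block there were 2671, with 1346 higher and 1325 lower. The labels give no shared culture or day to a replicate number. The correlation of deviations between libraries of the same number was 0.061, 0.116 and 0.081, and between different numbers it ran from -0.094 to 0.033. Because the labels name no pairing, the numbers were not taken to pair the libraries in the main fit. Each library correlated best with its own number, which is a hint from the data only.

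Leaving out 1 library in turn gave these ranges of called members, lower for hypoxia (15 to 23), glycolysis (8 to 15), sterol (1 to 13), fatty acid (3 to 6), ATF4 (1 to 12), repair (3 to 11) and RAS-ERK genes (3 to 9), and higher for p53 (8 to 22), NRF2 (6 to 16), YAP and TEAD (2 to 8), extracellular matrix (12 to 24), lysosome (9 to 25) and histone genes (4 to 7). The ATF4 count was also 5 with no filter, 4 with the same total and 3 with no trend, the RAS-ERK count 5 with no trend, and the histone count 4 at a minimum of 50, where 10 of 24 members were tested. The cause of the other moves was not tested.

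Of 239 genes recomputed, 126 kept their sign and their side of the threshold in every alternative. Of 3818 values 458 were no longer called and 12 newly called. No called gene reversed, but 2 uncalled genes near 0 changed sign. Hif1a was at 0.0081 with the same total and ran from -0.158 to 0.059 as single libraries were left out. Prmt3 was at 0.0085 with the same total and ran from -0.072 to 0.024, both lowest without shPrmt1 2. Of 735 list medians, 26 had another sign than the reported one. Among lists with a reported median above 0.1 or below -0.1, these were the histone list at a minimum of 50 (-0.07) and the methylarginine list with no filter (0.06).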
